A study of Mus musculus with 4 samples.

Results

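Open chromatin was examined where 2 neighbouring protein-coding genes of the mouse share an end. A region was counted as shared when at least 1 of its summits lay within 1000 bp of the facing outer ends of 2 different genes that do not overlap and whose facing ends are at most 1000 bp apart. On chromosomes 1 to 19, 1416 of the 113404 distinct regions in the deposited list met this rule, which is 1.25% of the list and 8.83% of the 16032 regions with a summit within 1000 bp of any protein-coding gene end. Of the shared regions, 1383 met the rule for 1 pair of genes, 29 for 2 pairs and 4 for 3 pairs. They were set beside the 13690 regions whose summits lay at the end of a single gene.

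The list comes from ATAC-seq, which reads DNA that the Tn5 transposase can cut because it is not packed in nucleosomes. The study's 4 libraries came from wild-type colonic epithelial organoids (cultures grown from the crypts of the gut lining) of mice with chronic colitis or of healthy controls. Organoids of each kind were kept for 24 h in 10 µM T-5224, an inhibitor of the transcription factor AP-1, or in 0.1% DMSO, with 1 library per group and a single batch label. The deposited list has no column for a library, and the labels do not say whose reads the peaks were called on, so no group could be compared with another and no p-value was computed.

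The tissue label was checked on gene ends. All 8 epithelial markers (Epcam, Cdh1, Krt8, Krt18, Krt20, Vil1, Cdx1 and Cdx2) had a summit within 1000 bp of an outer end, with folds between 16.8 and 59.1. Of the leukocyte genes, Ptprc and Cd3e had no summit anywhere in the gene, and Spi1 had one of 25.7-fold. The stromal genes Col3a1 and Pecam1 had none at an end but had summits of 3.25-fold and 4.75-fold elsewhere in the gene. At an end, Col1a1 had one of 16.3-fold and Pdgfrb one of 6.49-fold, so all 4 stromal genes had a summit.

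As background, genes often lie head to head, so that a short stretch of DNA serves as the promoter of both and is read in opposite directions. Such divergent promoters are usually rich in CpG and poor in TATA boxes, and many belong to housekeeping genes of DNA repair, mitochondria and histones. Neighbours can also lie in tandem, where the 3′ end of a gene faces the start of the next, or tail to tail, where both ends are 3′ ends and neither brings a promoter.

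The sequences of 6 head-to-head promoters are shown because they belong to strong members or to gene pairs known from textbooks, and because the short motifs counted further on can be seen in them. Each is a RefSeq promoter window of 300 bases on GRCm38.p6, 5′ to 3′ on the strand of the gene whose window it is, from 250 bases before its start to 50 bases after, and each holds the whole gap. Capitals mark every match, on either strand, to 8 motifs. These are CCAAT, the box bound by NF-Y, and GGGCGG, the box bound by Sp and Klf factors, called the GC box here. CCGGAAG is bound by ETS factors, and GCATGCG forms the core of the NRF1 site. TATAAA stands for the TATA box, and TGANTCA for the site of AP-1. The CRE, bound by CREB factors, is TGACGTCA, and the letters used for YY1 are AAGATGGCG. Overlapping matches were each counted. A match describes letters only. The windows are of Hnrnpc (chr14:52103972-52104271, minus strand), Isca2 (chr12:84773020-84773319, plus), L3hypdh (chr12:72085264-72085563, minus), Nbr1 (chr11:101551857-101552156, plus), Npat (chr9:53536797-53537096, plus) and Tap1 (chr17:34187306-34187605, plus).
Hnrnpc/Rpgrip1: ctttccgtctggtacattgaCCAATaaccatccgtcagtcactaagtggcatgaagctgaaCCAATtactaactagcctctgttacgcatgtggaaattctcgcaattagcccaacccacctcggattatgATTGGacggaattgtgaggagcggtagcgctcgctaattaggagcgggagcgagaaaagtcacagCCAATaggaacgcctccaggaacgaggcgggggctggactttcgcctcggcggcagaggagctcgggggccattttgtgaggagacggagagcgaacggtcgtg
Npc2/Isca2: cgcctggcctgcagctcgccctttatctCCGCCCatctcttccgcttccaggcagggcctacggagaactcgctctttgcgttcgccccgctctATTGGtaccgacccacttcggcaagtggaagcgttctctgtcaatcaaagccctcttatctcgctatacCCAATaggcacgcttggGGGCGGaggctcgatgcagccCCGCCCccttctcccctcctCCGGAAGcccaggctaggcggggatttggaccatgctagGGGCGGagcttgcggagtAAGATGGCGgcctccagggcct
L3hypdh/Jkamp: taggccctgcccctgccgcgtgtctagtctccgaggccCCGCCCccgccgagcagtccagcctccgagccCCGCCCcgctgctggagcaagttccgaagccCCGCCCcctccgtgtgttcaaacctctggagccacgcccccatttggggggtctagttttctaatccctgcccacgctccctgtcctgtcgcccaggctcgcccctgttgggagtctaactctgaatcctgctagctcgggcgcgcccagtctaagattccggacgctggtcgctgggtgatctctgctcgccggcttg
Brca1/Nbr1: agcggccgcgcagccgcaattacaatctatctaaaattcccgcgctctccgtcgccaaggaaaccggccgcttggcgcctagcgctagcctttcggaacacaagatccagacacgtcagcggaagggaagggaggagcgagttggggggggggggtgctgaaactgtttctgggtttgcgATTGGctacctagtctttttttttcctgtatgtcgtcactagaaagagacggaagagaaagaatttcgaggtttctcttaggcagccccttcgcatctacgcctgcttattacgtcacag
Atm/Npat: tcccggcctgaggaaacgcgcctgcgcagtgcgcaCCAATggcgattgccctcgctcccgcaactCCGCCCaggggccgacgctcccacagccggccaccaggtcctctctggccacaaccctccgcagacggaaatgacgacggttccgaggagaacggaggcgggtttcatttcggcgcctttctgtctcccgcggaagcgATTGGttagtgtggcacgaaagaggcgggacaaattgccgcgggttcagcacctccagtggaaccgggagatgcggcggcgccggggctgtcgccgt
Psmb9/Tap1: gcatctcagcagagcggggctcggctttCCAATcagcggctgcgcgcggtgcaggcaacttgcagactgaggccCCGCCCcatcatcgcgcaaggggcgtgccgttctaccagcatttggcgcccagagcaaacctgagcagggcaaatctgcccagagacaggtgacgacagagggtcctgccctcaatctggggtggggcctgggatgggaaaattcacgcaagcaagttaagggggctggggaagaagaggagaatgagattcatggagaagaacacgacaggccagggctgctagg

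In the Hnrnpc window the gap of 201 bp lies between bases 31 and 233 and holds 3 of the 4 CCAAT boxes, with no GC box. Hnrnpc encodes a nuclear RNA-binding protein and Rpgrip1 a protein of the photoreceptor cilium, and their region reached 86.6-fold. The gap of Npc2, a lysosomal cholesterol carrier, and Isca2, a factor of mitochondrial iron-sulphur assembly, is 117 bp long and holds 2 CCAAT boxes and 2 GC boxes. An ETS site and a YY1 site follow further into that window, beyond the outer end of Isca2. The 114 bp between L3hypdh, a dehydratase of hydroxyproline breakdown, and Jkamp hold 3 GC boxes and no CCAAT box, and their region reached 79.4-fold. In that window the outer end of L3hypdh lies at base 131, upstream of the start that RefSeq gives to the window. The gap of Brca1, which acts in repair of double-strand breaks, and Nbr1, a receptor of selective autophagy, holds 1 CCAAT box on the strand opposite to the printed one. The gap of 60 bp of Atm, the kinase that signals DNA damage, and Npat, an activator of histone genes, holds 1 CCAAT box and 1 GC box, as does the gap of 225 bp of Psmb9, a subunit of the immunoproteasome, and Tap1, a peptide transporter of antigen presentation. The windows ranged from 54% to 67% in G+C. The ratio of observed to expected CpG was 1.06 in the Nbr1 window and 0.549 in the Tap1 window.

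Shared regions were stronger, wider and more often had several summits than regions at a single gene end. The strength used here is the authors' fold, the pileup at the strongest summit of a region over the expected background. It had a median of 31.0 in the 1416 shared regions (95% interval of the median 29.7 to 32.3) and of 15.8 in the 13690 single regions (15.2 to 16.3). The middle 50% of shared regions ran from 11.1 to 46.7, so the spread within them was larger than the difference of 15.2 between the medians. Median width was 1591 bp against 1139 bp, and 61.9% against 49.3% of regions had more than 1 summit (Wilson 95% intervals 59.3 to 64.4 and 48.5 to 50.2). All intervals cover counting error only. Another 926 regions met ends of 2 or more genes but not the rule, with medians of 26.5-fold and 1618 bp. Several summits were found in 64.4% of them, so width and summit number were not particular to shared regions. A region with more summits also has more chances to meet the rule. With regions placed by their strongest summit alone, the differences were 15.2 in fold, 435 bp and 11.6 percentage points.

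The same differences were taken on each chromosome as a measure of how steady they are along the genome. The median fold was higher in shared regions on 19 of 19 chromosomes, by 15.9 ± 4.92 (mean ± SD over chromosomes), and the median width on 19 of 19, by 451 ± 165 bp. The share with more than 1 summit was higher on 18 of 19, by 11.2 ± 7.69 percentage points. Chromosomes of 1 list are not replicates of an experiment, so these are descriptions.

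Regions were then ranked by fold among all 111280 on these chromosomes. A fold of 14.0 or more was held by 20.1% of all regions and by 52.4% of single regions. Of the shared regions, 1027 of 1416 (72.5%) reached it. In pileup terms the median shared region had 266 overlapping reads or fragments at its strongest summit (Poisson 95% interval 235 to 300) against a background of 7.63.

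The way the 2 genes point divided the shared regions more sharply than the sharing itself. RefSeq promoter windows give a strand to 79.6% of the protein-coding genes, and both strands to 1435 of the 2014 neighbouring pairs. Between 2 starts lay 552 regions with a median of 41.9-fold (39.4 to 43.7), between a start and a 3′ end 350 with 23.2-fold (21.0 to 26.0), and between a pair of 3′ ends 137 with 3.59-fold (3.36 to 4.06). The other 377 regions, with a gene of unknown strand, had 26.1-fold. For comparison, single starts had 23.1-fold (n = 8371) and single 3′ ends 4.17-fold (n = 2239).

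**Figure D1:**
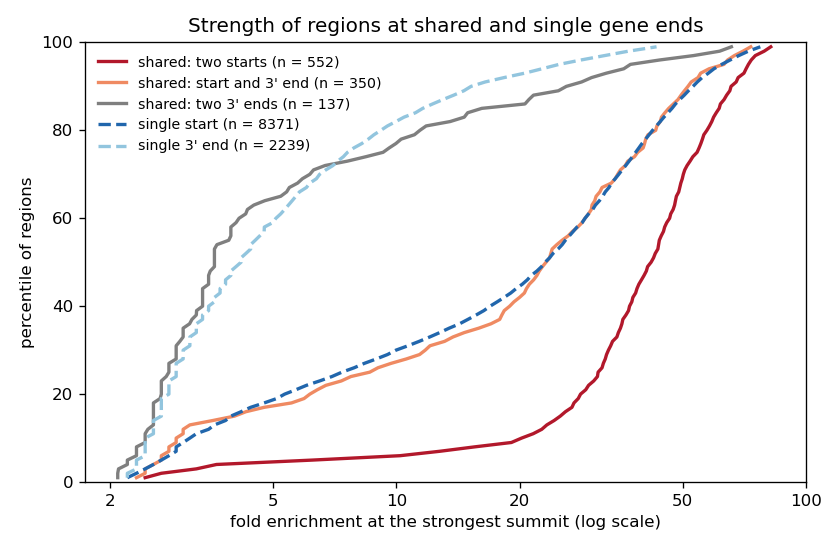
Percentile of regions (y axis) against fold enrichment at the strongest summit (x axis, log scale), 1 line for each class of shared region and, dashed, for single starts and single 3′ ends. Regions between 2 starts (median 41.9) lie to the right of single starts (23.1), while regions of a start and a 3′ end (23.2) run along the single starts and regions of a pair of 3′ ends (3.59) start beside single 3′ ends (4.17) and pass to their right in the upper part.

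Head-to-head regions differed from single starts on every chromosome that gave a value. Their median fold was higher on 18 of 18 chromosomes, by 18.3 ± 5.26, their median width on 18 of 18, by 533 ± 133 bp, and their share with several summits on 18 of 18, by 14.7 ± 7.81 percentage points. Of 552 head-to-head regions, 512 (92.8%, 90.3 to 94.6) reached 14.0-fold, beside 64.4% of single starts. Of the remaining 40, 17 lay beside a region of the same pair that did reach it.

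The medians of tandem regions lay close to those of single starts. The difference of medians was 0.116 in fold, 41 bp in width and 2.64 percentage points in the share with several summits. The median fold was higher than that of single starts on 10 chromosomes and lower on 8, with a mean difference of 1.05 ± 7.94. Of 350 tandem regions, 234 (66.9%, 61.8 to 71.6) reached 14.0-fold, close to the 64.4% of single starts.

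The median of tail-to-tail regions was close to that of single 3′ ends, while their upper part was stronger. Their median fold was lower than that of single 3′ ends on 13 of 17 chromosomes and higher on 3, with a difference of -0.58 between the medians over all chromosomes and a mean difference of 0.36 ± 3.21 over the 17. Their median width was 494 bp against 451 bp, while 38.7% (30.9 to 47.0) against 22.8% (21.1 to 24.6) had several summits. Of 137 tail-to-tail regions, 25 (18.2%, 12.7 to 25.6) reached 14.0-fold, beside 11.7% of single 3′ ends and 20.1% of all regions. The 90th percentile of fold was 26.0 against 15.2 at single 3′ ends.

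Those 25 strong tail-to-tail regions were long. Their median width was 2249 bp, 12 of them also covered the outer start of 1 of their genes, and in 14 the strongest summit lay more than 1000 bp from the middle of the gap. Rps21, a protein of the small ribosomal subunit, had 70.1-fold in its region with Cables2, 1221.5 bp from the middle of the gap and inside Rps21. Cldn7, a tight-junction claudin of the gut epithelium, had 61.3-fold in a region of 8133 bp shared with Elp5, 2622 bp from the middle and inside Cldn7. None of the 112 weaker tail-to-tail regions covered a start, and their median width was 440.5 bp.

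Width and summit number moved with strength, so they were also compared between regions of like fold. All regions at gene ends were divided by fold into 5 classes of equal size. In the strongest class, from 39.8-fold upward, the 297 head-to-head regions had a median width of 2042 bp and the 1935 single starts 1977 bp, with several summits in 75.1% and 76.0%. In the next class, 24.9-fold to 39.8-fold, widths were 1784 bp and 1613 bp and shares 73.7% and 68.0%. In the class from 10.3-fold to 24.9-fold they were 1409.5 bp and 1329 bp, and 60.9% and 61.6%. The 2 weakest classes hold 11 and 23 head-to-head regions: from 3.71-fold to 10.3-fold they were narrower (593 bp against 712.5 bp) with several summits in 27.3% against 40.3%, and below that the widths were 292 bp and 294 bp and the shares 26.1% and 12.2%. Averaged over the classes with weights by the number of head-to-head regions, the difference in width fell from 541 bp to 93.4 bp and that in the share with several summits from 14.3 to 1.59 percentage points. For all shared against all single regions, the same step, weighted by the shared regions, left 70.0 bp of 452 bp and 3.31 of 12.5 percentage points.

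**Figure D2:**
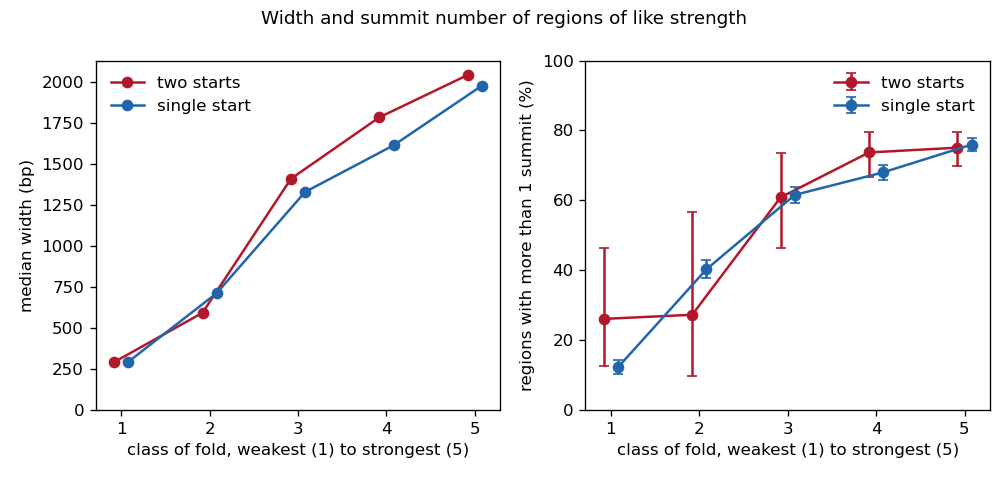
Median width in bp (left) and percentage of regions with more than 1 summit, with Wilson 95% intervals (right), in 5 classes of fold from weakest to strongest, for head-to-head regions (red) and single starts (blue). In class 5 the widths are 2042 and 1977 bp, in class 2 the head-to-head values are the lower ones, and the intervals of the summit shares overlap in all 5 classes.

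The pairs themselves were accounted for next, including those without any summit. The RefSeq gene table holds 2014 pairs that meet the rule on position, formed by 3614 genes, and 1346 of them (66.8%, 64.7 to 68.9) had a summit within 1000 bp of both ends. A single region served 1246 pairs, 93 pairs had 2 regions, 7 had 3 and 668 had none. Among 565 head-to-head pairs, 541 (95.8%, 93.8 to 97.1) had a summit, beside 57.3% of 13860 lone starts, which have no other gene end within 1000 bp. Tandem pairs had one in 329 of 448 cases (73.4%, 69.2 to 77.3). Tail-to-tail pairs had one in 119 of 422 (28.2%, 24.1 to 32.7), beside 15.0% of 14089 lone 3′ ends.

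In head-to-head and tail-to-tail pairs the share with a summit was lower where the gap was longer. Head-to-head pairs had a summit in 97.9% of gaps up to 100 bp, 96.1% of those above 100 and up to 250 bp, 95.3% of those up to 500 bp and 81.0% of longer gaps. Tail-to-tail pairs went from 39.2% through 34.9% and 27.5% to 19.4%. Tandem pairs showed no such order, with 65.5%, 85.5%, 72.6% and 71.6%. A longer gap leaves a narrower stretch that is within 1000 bp of both ends, and its part in these shares was not tested.

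**Figure D3:**
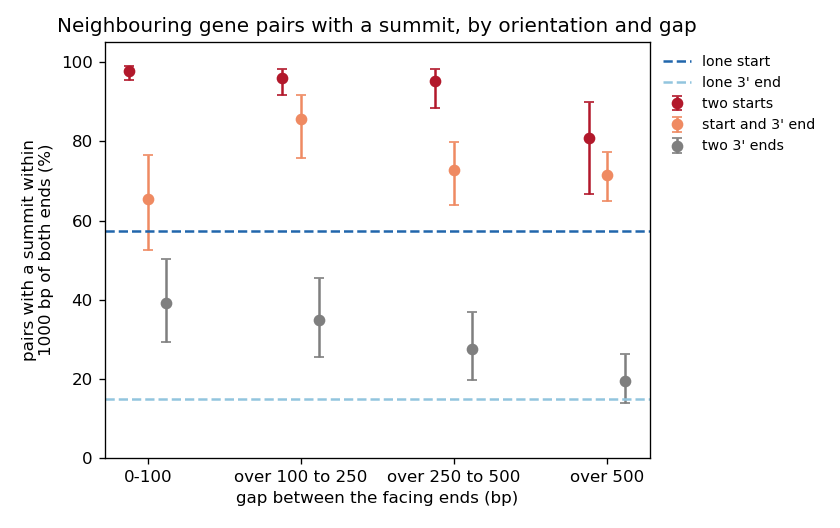
Percentage of neighbouring gene pairs with a summit within 1000 bp of both facing ends (y axis), by length of the gap in bp (x axis) and by orientation, with Wilson 95% intervals; dashed lines give lone starts (57.3%) and lone 3′ ends (15.0%). Head-to-head pairs lie between 81.0% and 97.9%, above every tail-to-tail value (19.4% to 39.2%).

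The 24 head-to-head pairs without a summit were of a few kinds, and they are named here after their values were seen. In 7 no summit lay within either gene or within 1000 bp of it, among them Mup15/Mup-ps12 and Mup19/Mup-ps16 of the major urinary protein cluster, the olfactory receptors Olfr181/Olfr183, and H2bc1/H2ac1, histone genes known from testis. In the other 17 a summit lay elsewhere in 1 or both genes. Ctnnd1, the p120 catenin of adherens junctions, had 49.5-fold elsewhere and its neighbour Btbd18 13.3-fold. Rps2, a ribosomal protein, had 55.3-fold elsewhere and Rnf151 none. Stat5a and Stat5b, which encode cytokine-activated transcription factors, had 26.7-fold and 12.3-fold elsewhere and none at their common gap of 346 bp. RefSeq gives many genes more than 1 start, and only outer ends were used here.

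Weak head-to-head pairs were also few. Taking the strongest region of each of the 541 pairs with a summit, 522 (96.5%) reached 14.0-fold and 19 did not. Among those 19 were Rnf123/Mst1 with 2.43-fold, Ifit1bl2/Ifit1 of the interferon-induced genes with 3.25-fold, Cd160/Pdzk1 with 3.36-fold, Peg3/Usp29, an imprinted pair, with 9.16-fold, and Cgas/Mto1 with 12.4-fold. Cgas encodes the sensor of cytosolic DNA. These were picked after their values were seen.

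Members near the limits of the rule were weaker than the rest. Pairs with gaps of 900 to 999 bp had a summit in 37 of 89 cases, with a median of 20.3-fold, and pairs with gaps of 1000 to 1099 bp, just outside the limit, in 25 of 90, with 15.8-fold. These values pool all orientations. Of pairs with gaps over 500 bp, 42 were head to head, 197 tandem, 155 tail to tail and 207 without a strand. In such gaps the median fold of regions was 38.3 head to head, 22.8 in tandem and 3.36 tail to tail. Over all gaps it was 41.9, 23.2 and 3.59. Where the nearest summit was 901 to 1000 bp from the farther end, 68 regions had a median of 4.41-fold, and at 1001 to 1100 bp 62 regions had 4.23-fold.

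The strongest summit of a head-to-head region sat close to the middle of the gap in gaps up to 500 bp. Over all gaps its median distance from the middle was 58.5 bp, and 362 of 552 (65.6%, 61.5 to 69.4) were within 100 bp of it. In the 37 regions with gaps over 500 bp (median gap 741 bp) the median distance was 364 bp, and 3 were within 100 bp. In gaps up to 100 bp (median 46 bp) the middle is also near both starts, so nearness to the one cannot be told from nearness to the other. Over all gaps, the strongest summit lay inside the gap in 245 regions (44.4%). In gaps up to 100 bp this share was 20.5%, where the gap makes up 2.35% of the stretch the rule allows. In gaps above 100 and up to 250 bp it was 70.2% (gap 8.46% of the stretch), in gaps up to 500 bp 73.7% (18.6%) and in longer gaps 64.9% (58.9%). The region spanned the whole gap in 514 of 552 cases (93.1%).

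Head-to-head regions reached into each of the genes about as far as a single start does. Those that spanned the gap extended a median of 849.5 bp into each gene, over 1028 gene sides. Regions at single starts reached 893 bp downstream and 519 bp upstream, and tandem regions 888 bp downstream. Strength also varied with the gap: the median was 37.6-fold (35.6 to 40.2) in gaps up to 100 bp, 48.1-fold (43.6 to 50.3) above that and up to 250 bp, 47.1-fold (42.4 to 54.6) up to 500 bp and 38.3-fold (28.5 to 45.8) beyond. The middle classes of gap were thus the stronger ones, by about 10 in fold over the shortest, and neither of their intervals overlapped that of the shortest.

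In tandem pairs the strongest summit mostly lay on the side of the start. The strongest summit was nearer the start than the 3′ end in 289 of 350 regions (82.6%, 78.2 to 86.2), and in 200 of 241 (83.0%) with a gap over 250 bp. Its median position was 13 bp downstream of the start in the 329 tandem regions where it lay within 1000 bp of it. For 8010 single starts this was 12 bp. Only 50.3% of tandem regions spanned the whole gap.

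**Figure D4:**
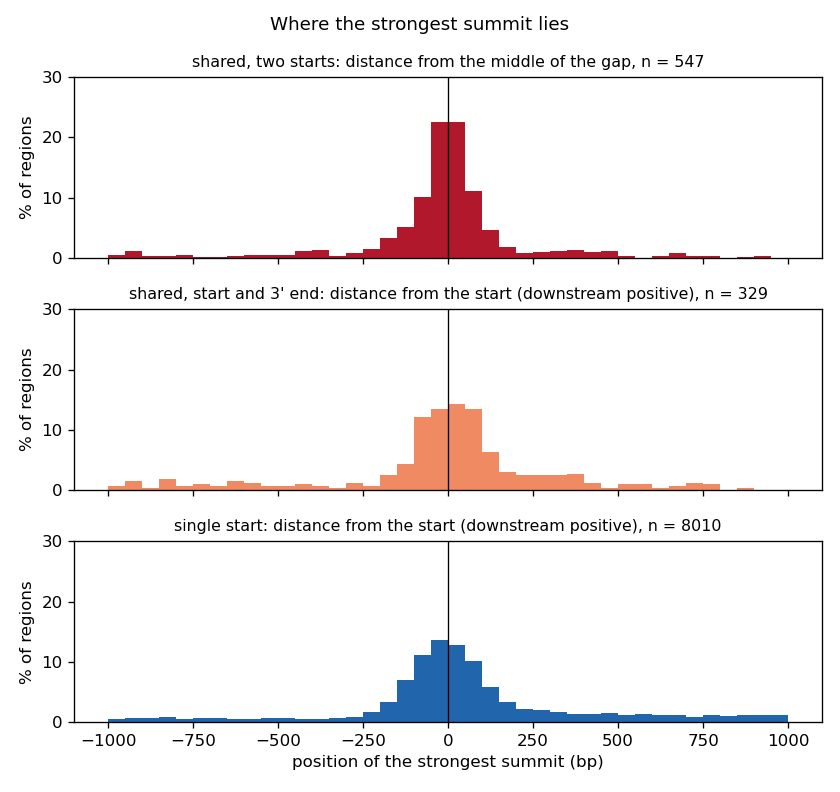
Percentage of regions (y axis) by position of the strongest summit in bins of 50 bp (x axis, bp), for head-to-head regions around the middle of the gap, tandem regions around the start and single starts around the start; summits more than 1000 bp away are left out. All 3 classes peak at 0, and head-to-head regions peak highest, with 65.6% of all 552 within 100 bp.

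The summits of head-to-head regions were laid out in several ways. Of the 552 head-to-head regions, 157 (28.4%) had summits in 1 gene only, 129 (23.4%) in the gap and 1 gene, 122 (22.1%) in both genes but not in the gap, 78 (14.1%) in the gap and both genes, and 66 in the gap only. Neighbouring summits were a median of 582 bp apart in head-to-head regions, 540 bp in tandem regions, 528 bp at single starts and 442.5 bp at single 3′ ends. A noncoding gene of the RefSeq table covered part of the gap in 4 of 552 head-to-head regions, in 43 of 350 tandem regions (12.3%) and in none of 137 tail-to-tail regions.

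The promoter windows of head-to-head genes were rich in CpG. A window with its start within 1000 bp of the outer end was found for 995 of the 1075 genes at such regions. The median ratio of observed to expected CpG was 0.859 in them, 0.753 at single starts with a region, 0.689 at the start of tandem pairs and 0.181 at lone starts without a summit. G+C was 62.3%, 61.3%, 59% and 46.7%. Head-to-head windows were therefore set against single starts of like CpG: in 5 classes of the ratio from low to high, the median fold was 32.7 against 8.46, 41.9 against 23.2, 44.9 against 27.5, 43.7 against 30.5 and 39.8 against 31.2. The head-to-head median was the higher in each class, and the difference averaged over the classes, weighted by head-to-head regions, was 14.0, with 25 head-to-head regions in the lowest class.

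Among the motifs searched, ETS letters differed between head-to-head windows and single starts by the most percentage points. The ETS letters were in 29.5% (26.8 to 32.5) of 995 head-to-head windows, 21.9% of tandem starts, 15.3% (14.4 to 16.1) of single starts with a region, 2.47% of lone starts without a summit and 8.86% of all 32851 windows of the table. The YY1 letters were in 6.43%, 1.63%, 2.74%, 0.118% and 1.40% of the same groups, and the GC box in 70.2%, 65.0%, 66.1%, 13.8% and 35.7%. The CCAAT box was in 43.7%, 40.8%, 38.4%, 39.7% and 37.4%. The windows of a pair often overlap, so that 1 match can count for both genes. Of 468 pairs with both windows, 108 had the ETS letters in both and 66 in 1. The Wilson intervals take windows as independent, so those of head-to-head windows are too narrow.

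TATA and AP-1 letters were rarer in head-to-head windows than in the other groups. The TATA letters were in 4.82% (3.66 to 6.34) of them, 7.50% of single starts with a region, 26.3% of lone starts without a summit and 13.6% of all windows. The AP-1 letters, bound by the factor that T-5224 inhibits, were in 3.42% (2.46 to 4.74), 5.44%, 10.9% and 7.81%. Tandem starts had the TATA letters in 9.15% (6.41 to 12.9) and the AP-1 letters in 4.90% (2.99 to 7.93). For AP-1 the tandem interval overlaps the head-to-head one. The NRF1 core and the CRE were more frequent head to head than at lone starts without a summit and in all windows. In the same order, the NRF1 core was in 7.84% (6.33 to 9.68), 6.34% (5.80 to 6.93), 1.54% and 3.58%. The CRE was in 3.92% (2.88 to 5.31), 3.29% (2.90 to 3.73), 0.651% and 1.79%. For both, the intervals of head-to-head windows and single starts overlapped. Tandem starts had the NRF1 core in 7.19% and the CRE in 4.25%, above the head-to-head share of the CRE. Counted by pair, 37.2% of the 468 head-to-head pairs with both windows had the ETS letters in at least 1, 51.9% a CCAAT box and 79.5% a GC box. A pair gives a motif 2 windows to occur in, so these shares cannot be set beside those of single windows.

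**Figure D5:**
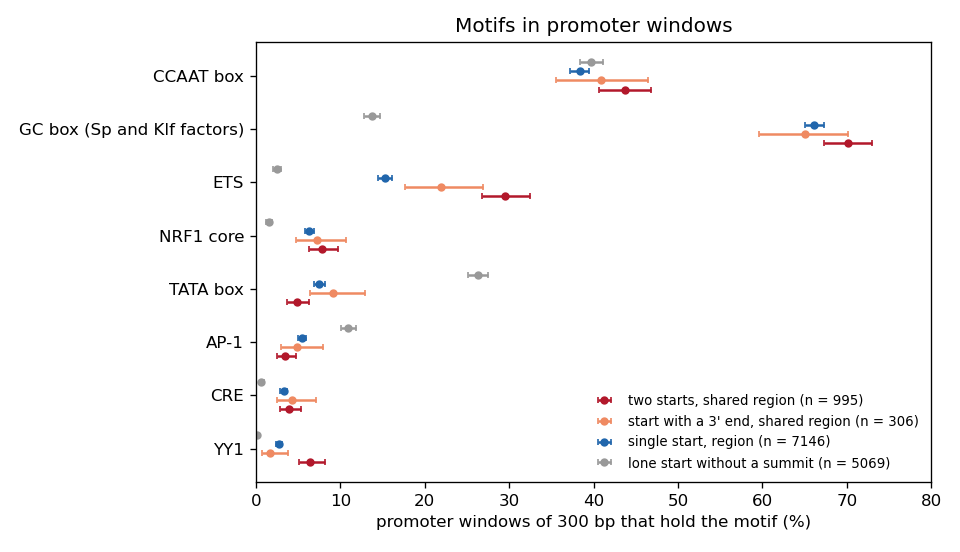
Percentage of 300 bp promoter windows that hold each motif on either strand (x axis), with Wilson 95% intervals, for head-to-head starts (n = 995), tandem starts (306), single starts with a region (7146) and lone starts without a summit (5069). ETS letters are in 29.5% of head-to-head windows against 15.3% of single starts, and TATA letters in 4.82% against 26.3% of lone starts without a summit.

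Within head-to-head regions, the median fold was higher with a CCAAT or GC box, as at single starts, and similar with and without ETS letters. Head-to-head regions with a CCAAT box in the window had a median of 46.6-fold (n = 275) and those without 36.7-fold (n = 274). With a GC box they had 43.4-fold and without 35.6-fold. With ETS letters they had 41.4-fold (n = 193) and without 42.0-fold (n = 356), whereas single starts with ETS letters had 31.2-fold and without 22.3-fold. These medians are descriptions over regions, and their differences were not tested.

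By fold, the strongest member lay between Ubxn6, a cofactor of the segregase p97, and Hdgfl2, a chromatin reader, on chromosome 17 (56078446 to 56080905). It reached 89.6-fold (83.4 to 96.2 by counting) over 2460 bp with 4 summits. Cdca2/Kctd9 followed with 89.5-fold, Hnrnpc/Rpgrip1 with 86.6-fold and Pdcd10/Serpini1 with 84.1-fold. The intervals of these members overlap, so their order is not resolved. Next came Esrra/Catsperz with 83.1-fold, Npc2/Isca2 with 82.8-fold, Ppme1/C2cd3 with 82.7-fold, BC005624/Usp20 with 82.1-fold, Dcaf6/Mpc2 with 82.0-fold and Eif4a1/Senp3 with 81.3-fold. The tandem pairs among these 10 are Esrra/Catsperz and Eif4a1/Senp3, Cdca2/Kctd9 has no strand in the table, and the others are head to head. In the tandem pairs the start is that of Esrra, a nuclear receptor of mitochondrial genes, and that of Eif4a1, the helicase of translation initiation.

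Some of these pairs join a gene of general use with one known from a single tissue. Pdcd10 is a gene of cerebral cavernous malformation and Serpini1 encodes the neuronal inhibitor neuroserpin, yet 1 summit in their gap of 640 bp accounted for the whole region. Catsperz belongs to a sperm ion channel, but only its 3′ end faces Esrra. Mpc2, a subunit of the mitochondrial pyruvate carrier, shares its region with Dcaf6, and the summit lay 36 bp from the middle of their gap of 353 bp.

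At the other end, 8 regions tied at the lowest fold, 2.09 (1.26 to 3.27), with a pileup of 17. The first 5 in genome order were Rgl1/Arpc5 (head to head), Ntmt1/Asb6 and Rfx1/Dcaf15 (tail to tail), Unk/Unc13d, and Cdhr2/Gprin1 (tail to tail). They were 200 to 402 bp wide with 1 summit each. That of Rgl1/Arpc5 lay 772 bp from the middle of the gap, inside Rgl1.

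The widest region was also the one with the most summits. It covered 25308 bp with 43 summits around Bfsp1, a lens filament protein, and Dstn, an actin-depolymerising factor, and its strongest summit (73.3-fold) lay 155 bp from the middle of their gap, in Dstn. A region of 15179 bp with 27 summits joined Krt78 and Krt8, the keratin of simple epithelia. Its strongest summit (43.2-fold) lay 5525.5 bp from the middle of the gap, inside the outer bounds of Krt78, whose RefSeq promoter window lies elsewhere. A region of 9772 bp with 19 summits joined Atp5d, a subunit of ATP synthase, and Midn, with 51.7-fold at 3016.5 bp from the middle of the gap, inside Midn.

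Pairs known from textbooks as divergent were looked up whether or not they met the rule. Of 16, 10 were members: Pdcd10/Serpini1 (84.1-fold), Atm/Npat (68.9), Brca1/Nbr1 (65.4), Prkdc/Mcm4 (65.4), Pcna/Cds2 (61.6), Gart/Son (53.2), Trp53/Wrap53 (49.6), Sars2/Mrps12 (48.2), Tap1/Psmb9 (33.5) and Sirt3/Psmd13 (32.3). All 10 lay above the median of all shared regions, 31.0-fold. Tap1/Psmb9 and Sirt3/Psmd13 lay below the median of head-to-head regions, 41.9-fold. In the other 6 the genes overlap in the RefSeq table and so fall outside the rule, and each still had a summit there, among them Paics/Ppat with 52.9-fold and an overlap of 277 bp, Hspd1/Hspe1 with 43.2-fold and 96 bp, Fen1/Tmem258 with 33.5-fold and 192 bp, Surf1/Surf2 with 20.8-fold and 239 bp, and Col4a1/Col4a2 with 6.38-fold and 85 bp. Col4a1 and Col4a2 encode the chains of basement membrane collagen, and theirs was the only one of the 16 below 20-fold.

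Genes were then grouped by role, and each list was read against all protein-coding genes, of which 12.1% were at a shared region and 5.20% at a head-to-head one. Only a gene in a neighbouring pair can be at a shared region, and 17.5% of all genes were in one. The share in a pair was 64.2% for core histones, 48.5% for the respiratory chain, 39.5% for DNA repair and replication and 10.8% for Zfp genes. The part of this layout in the shares of the lists was not tested. Core histones had the highest share of the 16 lists, with 38 of 67 genes (56.7%, 44.8 to 67.9), 14 of them head to head, and a median of 43.6-fold. Histone genes lie in clusters, and 21 of the 29 shared pairs with both genes in the same list were histone pairs. H2ac6/H2bc4 reached 65.2-fold with the summit 2 bp from the middle of the gap. A region of 6008 bp with 10 summits (49.3-fold) met the rule for 3 pairs around H2bc7 and H2ac7, and one of 2767 bp (27.4-fold) for 3 pairs around H2ac20 and H2bc21.

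Genes of mitochondria were common at shared regions. Of 97 respiratory chain genes, 40 (41.2%, 32.0 to 51.2) were at one and 24 at a head-to-head one. Of 78 genes of the mitochondrial ribosome, 26 (33.3%, 23.9 to 44.4) were, 17 of them head to head, and of 25 genes of mitochondrial import and chaperonins 9 (36%). Mrpl47, of the large mitochondrial ribosomal subunit, and Ndufb5, of complex I, face each other across 301 bp with 72.2-fold, and the summit lay 1 bp from the middle of the gap. Mrps18b/Ppp1r10 had 71.4-fold, Ndufs8/Aldh3b1, a tandem pair with the start of Ndufs8, 67.9-fold, Timm13/Lmnb2 64.3-fold and Arfip2/Timm10b 45.2-fold. The list of mitochondrial ribosome holds 1 pair with both genes in it, Mrpl46/Mrps11.

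Genes of DNA repair and replication had the highest median fold of the lists with more than 3 members at a shared region. Of 119, 40 (33.6%, 25.8 to 42.5) were at one, 28 of them head to head, with 47.9-fold, beside 34.7-fold over all genes at shared regions. Of all 2501 genes at shared regions, 1075 were at a head-to-head one, and the medians were not compared within an orientation. Atm with Npat and Prkdc with Mcm4 were the pairs with both genes in the list. Pola1 of this list lies outside chromosomes 1 to 19 and was not counted.

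Lists for reading and translating genes followed. RNA polymerases, general factors and Mediator had 24 of 93 genes at a shared region (25.8%) with 42.1-fold, 19 of them head to head, led by Med29/Paf1 with 69.1-fold and Clcn2/Polr2h with 66.5-fold. Aminoacyl-tRNA synthetases had 11 of 36 (30.6%), among them Fars2, a mitochondrial enzyme, at 56.2-fold with Lyrm4. Splicing had 12 of 37 (32.4%), with Qpctl/Snrpd2 at 63.6-fold and Cdc26/Prpf4 at 59.9-fold. The cytoplasmic ribosome had 21 of 86 (24.4%), 8 of them head to head, with Rps21/Cables2 at 70.1-fold and Rpl15/Nkiras1 at 68.9-fold.

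Genes of protein turnover and traffic were also above the 12.1% of all genes. The proteasome had 13 of 45 genes at a shared region (28.9%, 17.7 to 43.4) with a median of 32.3-fold, below the 34.7-fold of all such genes. Pcgf2/Psmb3 had 64.6-fold across a gap of 999 bp, at the limit of the rule, and Psme2/Rnf31 60.6-fold. Psme2 encodes an activator of the immunoproteasome and Rnf31 a subunit of the linear ubiquitin ligase. Vesicle tethering and sorting had 22 of 98 (22.4%), led by Trappc11/Rwdd4a with 71.0-fold and 4931428F04Rik/Exoc3l with 66.4-fold.

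Zinc finger genes were below the 12.1% of all genes, while the lists of colon identity, collagens and AP-1 were too short to be told from it, with intervals that hold it. Zfp genes had 29 of 388 (7.47%, 5.25 to 10.5), 15 of them head to head, with Zfp654/Cggbp1 at 81.2-fold and Zfp277/Dock4 at 73.5-fold. Fewer Zfp genes were in a neighbouring pair, 10.8% beside 17.5% of all genes. Of the 42 Zfp genes in a pair 29 were at a shared region, beside 2501 of 3614 over all genes in a pair. Of 30 genes of colon epithelial identity 3 were at a shared region (10%, 3.46 to 25.6), among them Cldn7 and Krt8, which meet it with their 3′ ends. Of 42 collagens 2 were (4.76%, 1.32 to 15.8): the 3′ end of Col23a1 faces the start of Phykpl with 72.1-fold, and the start of Col11a2 follows Rxrb with 5.91-fold. Of 14 AP-1 subunits and partners only Jund was (7.14%, 1.27 to 31.5), by its 3′ end at Iqcn, and its strongest summit (64.0-fold) lay 2137.5 bp from the middle of the gap, inside Jund. None of 1493 chemosensory receptor genes was, although 9 are in a neighbouring pair.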

How the data were processed

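Chromatin accessibility was measured by bulk ATAC-seq in 4 libraries, 1 per group, so no group had a replicate and none could be compared. Bowtie2, MACS2 and mm10 are named, without versions, per the submitters' processing notes; thresholds and duplicate handling were not given in those notes. The authors deposited 1 peak list of 157922 records, 1 per summit. The deposited score was not used. The deposited fold is a linear ratio of pileup to expected background at the summit, and the lowest −log10 q the authors list is 1.51. Depth per library is unknown. All folds (100%, tolerance 0.01) were whole pileups from 17 to 8197 plus 1, over a background of 7.63 plus 1. Intervals of single folds are exact Poisson intervals of the pileup, and reads are not independent molecules.

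Records with the same coordinates were joined into 1 region. Gene bounds came from a RefSeq table on GRCm38.p6, whose coordinates mm10 shares, with 20665 protein-coding genes on chromosomes 1 to 19. It gives no strand, which was taken from RefSeq promoter windows for 16457 of them. Shares have Wilson 95% intervals and medians binomial order-statistic intervals. Regions of 1 list are not replicates, so no p-value was computed. The scripts were tested on simulated data and ran in Python 3.11.15 with pandas 2.3.3, numpy 2.4.6 and scipy 1.17.1.

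Members, gene lists and comparisons were chosen with earlier results of these data known. Named are the 10 strongest and 5 weakest shared regions, the 3 widest, the 3 with the most summits, 16 textbook pairs, the 2 strongest members of each of 16 gene lists, and a few picked after their values were seen; some of these are not reported here. Alternatives changed the distance, gap, placement, q limit, gene set and comparison group.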

Additional observations from a re-analysis of the deposited data

Results flagged for a closer look

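The X chromosome was outside the rule, and shared regions lie there too. It held 44 neighbouring pairs, 22 of them with a summit within 1000 bp of both ends, and 21 shared regions with a median of 26.7-fold (2.20 to 35.9). Of 16 head-to-head pairs on X, 14 had a summit. Their regions had a median of 32.1-fold, against 13.0-fold at single starts on X. The strongest was that of Idh3g, a subunit of mitochondrial isocitrate dehydrogenase, and Ssr4, a protein of the endoplasmic reticulum translocon, with 35.9-fold. Folds on X and on the other chromosomes were not compared, since the number of X copies per cell is not known here.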

How the results depend on the processing

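No difference between shared and single regions reversed under any alternative tried; of 44 values, 24 moved by less than their interval (for the count of regions, less than 1.5 times) and 20 by more. Pairs with a summit were 49.5% at a distance of 500 bp, 76.5% at 2000 bp and 60.4% with −log10 q of at least 10. At 2000 bp there were 2127 shared regions, and the differences were 8.93 in fold and 8.76 percentage points in the share with several summits. With gaps of at most 500 bp the differences were 17.9 in fold and 511 bp in width, and with −log10 q of at least 10 they were 11.9 and 344 bp. Head to head against single starts gave 18.8 and 541 bp. Within 5 classes of fold, 70.0 bp and 3.31 points were left. The next alternatives were chosen after seeing the data and set head-to-head regions against single starts. Within 5 classes of fold they gave 93.4 bp and 1.59 points, within 5 classes of CpG 366 bp and 8.62 points, and with placement by the strongest summit 18.7 in fold and 539 bp. Leaving out the 33 regions of several pairs, also added, left 1383 and changed no call. No paired analysis was possible because each group has 1 library and the list has no column for a library. Without depth per library, a missing summit is not evidence of closed chromatin.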
